A study of Mus musculus with 3 samples.

Results

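Ifitm1, Ifitm2, Ifitm3, Ctla2a and Ctla2b are 5 of the 27998 genes counted in single cells of 3 bone marrow populations. They were chosen by symbol as genes that become lower along the steps of B cell development, so the choice used the same levels that are given here. Their levels are therefore a description, with no test. The label held for 4 of the 5 genes. Ifitm2 went against it: it was lower in common lymphoid progenitors than in multipotent progenitors, but higher in pro-B cells than in common lymphoid progenitors.

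The donors of the bone marrow were C57BL/6J mice, with 1 droplet library (10x Genomics 3-prime chemistry, version 2) per sorted population and no replicate. Lymphoid-primed multipotent progenitors (LMPP) were gated as cKit+, Sca1+ and Flt3+ cells negative for IL7Ra and B220. Common lymphoid progenitors (CLP) carried cKit, Sca1 and IL7Ra, were Flt3+/-, and lacked B220. Pro-B cells carried cKit, IL7Ra and B220, and lacked Sca1 and Flt3. The labels give these cells no mutant allele and no agent of their own. Their age, their sex and the number of animals pooled are not stated in the sources used here. Filtering kept 579 LMPP, 948 CLP and 1106 pro-B cells, with 4014657, 5967352 and 7367156 unique molecular identifiers (UMIs, each marking 1 captured transcript). Median depth per cell was 6789 UMIs for LMPP, 6258.5 for CLP and 5687.5 for pro-B, and 43.5%, 41.9% and 29.6% of these libraries were ribosomal protein transcripts. The early B markers summed to 45.1, 782 and 16125 counts per 1000000 UMIs (CPM) in the LMPP, CLP and pro-B libraries and the stem cell markers to 564, 142 and 15.2 CPM. With 1 library each, a difference between populations and a difference between droplet runs cannot be told apart. Intervals below are exact 95% Poisson or Clopper-Pearson intervals and cover counting error only.

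IFITM proteins are small membrane proteins of the cell surface and of endosomes that hinder the entry of enveloped viruses. Many cells make them in response to interferon, and stem and progenitor cells of several tissues hold them without it. Ifitm3 acts mainly in endosomes and Ifitm1 mainly at the cell surface. Ctla2a and Ctla2b, found first in activated mouse T cells and mast cells, encode small proteins that resemble the propeptide of cathepsin L-type proteases and inhibit such proteases. Kept apart from its protease, a propeptide of this kind works as a free inhibitor.

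The genes lie in 2 clusters of near copies. In the GENCODE annotation of GRCm38 (mm10), Ifitm1 spans chr7:140967221-140969825 on the plus strand, Ifitm2 spans chr7:140954837-140955987 on the minus strand and Ifitm3 spans chr7:141009586-141010770 on the minus strand. The start of Ifitm1 is 11.2 kb from that of Ifitm2 and 43.5 kb from that of Ifitm3. Ctla2a (chr13:60934155-60936625) and Ctla2b (chr13:60895350-60897447) are both on the minus strand, with starts 39.2 kb apart. All 5 are protein coding.

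The bases before the transcript starts are shown first for the Ifitm genes. The windows searched at their RefSeq starts differ in the interferon-stimulated response element (ISRE). It was searched as GAAA, any 2 bases and GAAA again, and is printed in capitals. The sequences are from RefSeq (GRCm38.p6), 5′ to 3′ on the strand of the gene, and end at the base before the first annotated start in the window. For Ifitm3 a site of 30 bases just after the RefSeq start is added. The Ifitm1 stretch lies inside an intron of a longer annotated Ifitm1 transcript. The bases before the start of the annotated gene (chr7:140967221), from which the distances above were taken, were not searched.
Ifitm1, chr7:140967908-140968027: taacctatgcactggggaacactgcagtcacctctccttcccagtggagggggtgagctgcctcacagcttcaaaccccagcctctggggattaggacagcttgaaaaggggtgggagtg
Ifitm2, chr7:140955988-140956107: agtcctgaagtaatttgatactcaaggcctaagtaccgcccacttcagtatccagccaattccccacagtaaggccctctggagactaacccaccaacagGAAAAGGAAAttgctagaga
Ifitm3, chr7:141010771-141010890: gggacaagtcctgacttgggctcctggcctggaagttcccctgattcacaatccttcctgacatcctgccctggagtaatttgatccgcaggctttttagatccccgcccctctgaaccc
Ifitm3 site, chr7:141010715-141010744: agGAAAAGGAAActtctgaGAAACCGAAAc

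For Ctla2a and Ctla2b the stretches are shown because they are near copies. Capitals mark the bases that differ between them and the Ctla2a bases with no partner in Ctla2b. The Ctla2b stretch is the 112 bases aligned with the 120 bases of Ctla2a. It ends short of the base before the annotated Ctla2b start.
Ctla2a, chr13:60936626-60936745: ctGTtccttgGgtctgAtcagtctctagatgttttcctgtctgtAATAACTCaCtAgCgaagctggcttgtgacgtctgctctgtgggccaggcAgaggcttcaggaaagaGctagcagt
Ctla2b, chr13:60897470-60897581: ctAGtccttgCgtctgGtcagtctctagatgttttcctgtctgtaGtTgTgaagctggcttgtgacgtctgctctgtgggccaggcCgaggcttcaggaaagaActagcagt

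All 5 genes had a RefSeq promoter window of 300 bases (250 before and 50 after the start), with 6 windows in all because Ctla2a has 2. On either strand, ISRE letters occurred in the windows of Ifitm2 (1 match) and Ifitm3 (2 matches) and in 3.44% of 32851 windows genome-wide. None matched in the Ifitm1 window. GAS letters (TTCNNNGAA), which STAT factors bind, occurred in the windows of Ifitm3 and Ctla2a and in 8.30% of all windows. The other letters searched were the ETS core GGAA, found in all 6 windows and in 96.0% of all windows, and overlapping the ISRE letters at Ifitm2 and Ifitm3. The E box CANNTG occurred in 4 of the 6 windows and 72.3% of all windows. AGATAA occurred in 1 window of Ctla2a and 11.2% of all windows, TGATAA in that of Ifitm3 and 9.05% of all windows, and the RUNX letters TGTGGT in none of the 6 and 16.8% of all windows. A match is a description of letters and not a bound site. Aligned over the windows, Ctla2a and Ctla2b were 91.7% identical and the Ifitm pairs 60.6% (Ifitm1 and Ifitm2), 67.0% (Ifitm1 and Ifitm3) and 66.1% (Ifitm2 and Ifitm3).

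Near copies raise the question of whether reads can be given to the right gene. The annotated transcripts were 88.8% identical between Ctla2a and Ctla2b and between 72.6% and 76.5% identical between the Ifitm genes. In the last 400 bases, where a 3-prime library reads, no window of 50 bases was shared, except that 15 of 351 windows of Ifitm3 were found in Ifitm1. The share of reads lost or moved between copies cannot be read from the deposited counts. Levels are not divided by length, since each UMI marks the end of 1 transcript.

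Ifitm1 was abundant in LMPP and rare in pro-B. It had 2423 UMIs (604 CPM, 580 to 628) in LMPP, 407 UMIs (68.2 CPM, 61.7 to 75.2) in CLP and 31 UMIs (4.21 CPM, 2.86 to 5.97) in pro-B. The level was 8.85-fold lower in CLP than in LMPP (interval 7.96 to 9.85), 16.2-fold lower in pro-B than in CLP (11.2 to 24.2) and 143-fold lower in pro-B than in LMPP (101 to 212). In LMPP it ranked 181 among 13966 genes with a UMI, and in pro-B 8797 among 13815.

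Ifitm2 had 2136 UMIs (532 CPM, 510 to 555) in LMPP, 944 UMIs (158 CPM, 148 to 169) in CLP and 2053 UMIs (279 CPM, 267 to 291) in pro-B. Its lowest level was in CLP, 3.36-fold lower than in LMPP (3.11 to 3.63). Pro-B stood above CLP, by 0.82 on the log2 scale (0.70 to 0.93), and below LMPP, by 1.91-fold (1.80 to 2.03). Over all genes at 50 CPM or more in the higher library, the median log2 ratio for pro-B over CLP was 0.34. With mitochondrial and ribosomal genes left out of the total, which shifts all genes alike, the Ifitm2 value was 0.50. Ifitm2 was the most abundant of the 5 genes in pro-B.

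Ifitm3 was lower at each step, by smaller factors than Ifitm1. It had 2678 UMIs (667 CPM, 642 to 693) in LMPP, 1355 UMIs (227 CPM, 215 to 239) in CLP and 689 UMIs (93.5 CPM, 86.7 to 101) in pro-B. These are 2.94-fold lower in CLP than in LMPP (2.75 to 3.14), 2.43-fold lower in pro-B than in CLP (2.21 to 2.67) and 7.13-fold lower in pro-B than in LMPP (6.56 to 7.77). It was the most abundant of the 5 genes in CLP.

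The Ctla2 genes had a profile close to that of Ifitm1. Ctla2a had 2678 UMIs (667 CPM, 642 to 693) in LMPP, 864 UMIs (145 CPM, 135 to 155) in CLP and 49 UMIs (6.65 CPM, 4.92 to 8.79) in pro-B. It was 4.61-fold lower in CLP than in LMPP (4.27 to 4.98), 21.8-fold lower in pro-B than in CLP (16.3 to 29.7) and 100.3-fold lower in pro-B than in LMPP (75.6 to 136). Ctla2b was the rarest of the 5 genes in each library, with 362 UMIs (90.2 CPM, 81.1 to 99.95) in LMPP, 122 UMIs (20.4 CPM, 17.0 to 24.4) in CLP and 4 UMIs (0.54 CPM, 0.15 to 1.39) in pro-B. It was 4.41-fold lower in CLP than in LMPP (3.58 to 5.46). With 4 UMIs in pro-B, close to the floor of 3 UMIs (0.41 CPM), its ratios there are imprecise: 37.7-fold lower than in CLP (14.3 to 140) and 166-fold lower than in LMPP (64.3 to 613).

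**Figure D1:**
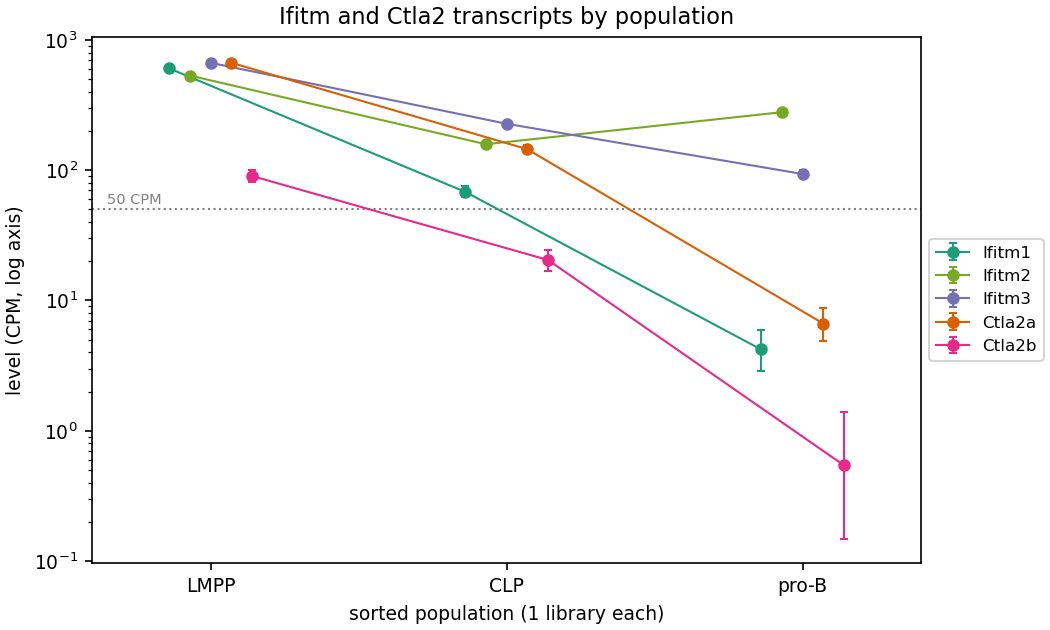
Level of each gene (CPM, log axis) in the LMPP, CLP and pro-B libraries, with exact 95% Poisson intervals. Ifitm1, Ctla2a and Ctla2b run down steeply to 4.21, 6.65 and 0.54 CPM in pro-B, Ifitm3 runs down to 93.5 CPM, and Ifitm2 has 279 CPM in pro-B, above its level in CLP.

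The order of the genes changed from library to library. In LMPP, Ctla2a and Ifitm3 had the same count, Ifitm1, Ifitm2 and Ctla2b followed in that order, and no other intervals overlapped. In CLP the order was Ifitm3, Ifitm2, Ctla2a, Ifitm1 and Ctla2b, and only Ifitm2 and Ctla2a had overlapping intervals. In pro-B it was Ifitm2, Ifitm3, Ctla2a, Ifitm1 and Ctla2b, with overlap between Ctla2a and Ifitm1. Within the Ifitm cluster, LMPP had 0.905 UMIs of Ifitm1 per UMI of Ifitm3 (0.86 to 0.96), CLP had 0.30 (0.27 to 0.34) and pro-B had 0.0450 (0.0303 to 0.0645). Per UMI of Ifitm3, LMPP had 0.798 UMIs of Ifitm2, CLP had 0.697 and pro-B had 2.98 (2.73 to 3.25). Per UMI of Ctla2b, LMPP had 7.40 UMIs of Ctla2a (6.63 to 8.28), CLP had 7.08 (5.85 to 8.63) and pro-B had 12.25, where the interval of 4.49 to 46.7 covers the other two. So the Ifitm neighbours changed their proportions between the libraries, while no change in the Ctla2 proportion was detectable at this depth. As sums, the 3 Ifitm genes made up 1803, 453 and 376 CPM and the Ctla2 pair 757, 165 and 7.19 CPM in the LMPP, CLP and pro-B libraries.

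For the counts that follow, a gene was called where it differed 4-fold or more and reached 50 CPM in the higher library. In CLP against LMPP, 3 of the 5 genes were called lower (Ifitm1, Ctla2a and Ctla2b), beside 0.895% of 2570 genes at that level. In pro-B against CLP, 2 of the 5 were called lower (Ifitm1 and Ctla2a), beside 3.93% of 3002 genes, and Ctla2b was past the fold but under 50 CPM in CLP. In pro-B against LMPP, 4 of the 5 were called lower (all but Ifitm2), beside 4.07% of 2995 genes. As the genes were chosen on these contrasts, nothing is read from the shares. The median log2 ratio of the 5 genes was −2.14 at the first step (CLP over LMPP), −4.02 at the second (pro-B over CLP) and −6.65 across both (pro-B over LMPP), beside −0.01, 0.34 and 0.36 for all genes at that level. Just inside the threshold lay Ctla2b (4.41-fold) and Ctla2a (4.61-fold) in CLP against LMPP, and just outside it lay Ifitm2 (3.36-fold). A 4-fold lower level at both steps, with 50 CPM or more in the highest library, was found for 18 of 3154 genes (0.571%). Ifitm1, Ctla2a and Ctla2b were among these 18.

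Counts per cell show how widely the transcripts were spread. Before thinning, Ifitm1 had a UMI in 84.5% of LMPP cells, 21.3% of CLP cells and 2.53% of pro-B cells, and the shares for Ctla2a were 89.1%, 46.9% and 4.34%. Ifitm2 was seen in 92.6% of LMPP, 50.2% of CLP and 74.1% of pro-B cells. Ifitm3 was seen in 92.7%, 57.1% and 38.7% of cells, and Ctla2b in 43.5%, 10.3% and 0.36%. In LMPP only 3 of 579 cells had no UMI of any of the 5 genes, against 160 of 948 cells in CLP and 193 of 1106 in pro-B.

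**Figure D2:**
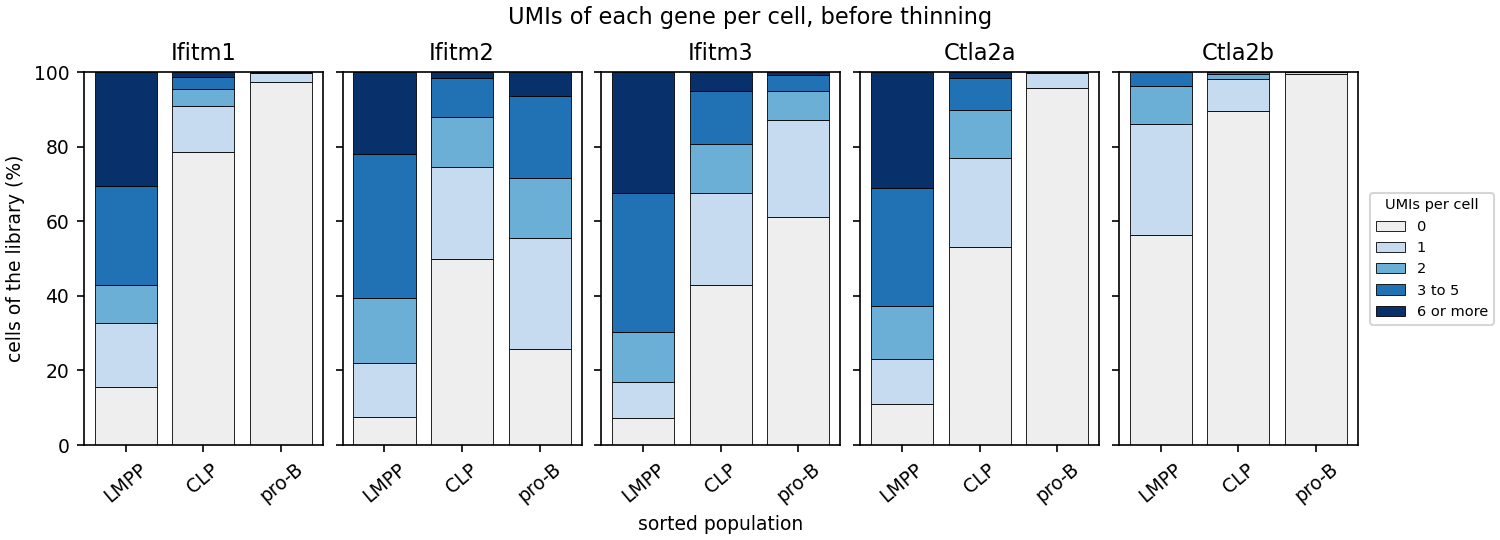
Share of cells (%) of each library by the number of UMIs of a gene in the cell, before thinning. Ifitm1 and Ctla2a have 6 or more UMIs in about as many LMPP cells (176 and 180 of 579) as Ifitm3 (188), and none in pro-B, where Ifitm2 still has 6 or more in 70 of 1106 cells.

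Cells differ in depth, so every cell was also thinned to 2000 UMIs, which kept 573 LMPP, 908 CLP and 1070 pro-B cells. Ifitm1 was then seen in 59.2% of LMPP (55.0 to 63.2), 11.5% of CLP (9.45 to 13.7) and 1.03% of pro-B cells (0.51 to 1.83). For Ctla2a the shares were 66.0% of LMPP (61.9 to 69.8), 23.3% of CLP (20.6 to 26.2) and 1.87% of pro-B cells (1.15 to 2.87). The Ifitm2 share kept its turn, with 59.9% of LMPP, 23.8% of CLP (21.1 to 26.7) and 42.3% of pro-B cells (39.4 to 45.4). Ifitm3 was seen in 66.7% of LMPP, 33.7% of CLP and 17.9% of pro-B cells. Ctla2b was seen in 16.9% of LMPP and 3.96% of CLP cells. At this depth 0 of 1070 thinned pro-B cells had a UMI of it. By the floor of 3 counts this allows a share of up to 0.280% of cells with a UMI at 2000 UMIs per cell, and it sets no limit on the cells that express the gene.

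No population here is known to lack these genes, so free RNA has no outside measure, and its part in the low pro-B shares was not tested. Among the 4 more abundant genes, the pro-B shares of Ifitm1 and Ctla2a were the lowest at matched depth. The 31 UMIs of Ifitm1 in pro-B came from 28 cells with at most 2 UMIs each, and the 49 UMIs of Ctla2a from 48 cells. In LMPP no few cells carried the counts: the 5 cells with most UMIs of a gene held between 3.23% (Ifitm2) and 5.80% (Ctla2b) of them. In CLP these 5 cells held 13.3% of the Ifitm1 UMIs and 4.24% of the Ifitm2 UMIs.

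The genes were often seen in the same cells of LMPP. Of 573 thinned LMPP cells, 28 had none of the 5 genes, 63 had 1, 148 had 2, 185 had 3, 120 had 4 and 29 had 5. Of 908 thinned CLP cells, 357 had none, 301 had 1, 183 had 2, 61 had 3, 6 had 4 and 0 had 5. Of 1070 thinned pro-B cells, 493 had none, 481 had 1, 94 had 2 and 2 had 3.

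Pairs in the same cell were set beside the product of their single shares. In LMPP the ratio ran from 1.01 (Ifitm3 and Ctla2a) to 1.27 (Ifitm1 and Ctla2b). In CLP, Ifitm1 and Ifitm2 were seen together in 41 cells, 4.52% (3.26 to 6.08) beside a product of 2.72%. Ifitm1 and Ifitm3 shared 53 CLP cells, 5.84% (4.40 to 7.57) beside 3.86%, and Ifitm2 and Ifitm3 shared 95, 10.5% (8.55 to 12.6) beside 8.02%. Each of these Ifitm intervals lies above its product. With cells thinned to 4000 UMIs instead, the interval of Ifitm2 and Ifitm3 held the product (23.5%, 20.4 to 26.9, beside 20.9%), and that of Ifitm1 and Ifitm3 only just lay above it (10.7%, 8.50 to 13.3, beside 8.48%). Ctla2a and Ctla2b shared 14 CLP cells, 1.54% (0.85 to 2.57) beside 0.93%, where the interval holds the product. In pro-B, Ifitm2 and Ifitm3 shared 79 cells, 7.38% beside 7.56%, so they were seen together about as often as their shares alone would give.

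Cells of each library were clustered without the 5 genes. A cluster was named only where at least 2 markers of 1 cell type were among its 10 leading genes, which left most clusters unnamed. In LMPP the Stem-like cluster 4 (104 cells, with Hacd4 among its leading genes) had the highest levels of Ifitm1 (1047 CPM, 967 to 1132), Ifitm2 (658 CPM) and Ifitm3 (910 CPM). Cluster 2 (134 cells, led by the immediate early gene Fosb and the chemokine Ccl4) had the highest levels of Ctla2a (1021 CPM, 955 to 1091) and Ctla2b (151 CPM). The interferon stimulated gene Isg15 was also among the leading genes of cluster 2. The interval of Ctla2a in cluster 4 (999 CPM, 920 to 1082) overlapped that in cluster 2, as did that of Ctla2b (123 CPM, 96.9 to 155, against 126 to 179 in cluster 2), so these clusters are not separated for the Ctla2 genes. The Ifitm2 interval of cluster 4 (595 to 727) overlapped that of cluster 1 (523 to 606).

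The lowest LMPP levels were in cluster 6, which had 19 cells and plasmacytoid dendritic-like markers (Irf8, Siglech). Ifitm1 was 152 CPM there, Ifitm2 228 CPM, Ifitm3 418 CPM, Ctla2a 38.0 CPM and Ctla2b 12.7 CPM. The Ifitm3 value rests on 1 cell: it held 47 of the 66 UMIs, and the level without it was 138 CPM. The next highest LMPP cell held 24 Ifitm3 UMIs.

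The same kind of cells was low in CLP. The plasmacytoid dendritic-like cluster 4 (111 cells) had 7.31 CPM of Ifitm1 (2.68 to 15.9, 6 UMIs), 84.0 CPM of Ifitm2, 76.7 CPM of Ifitm3, 37.8 CPM of Ctla2a and 3.65 CPM of Ctla2b. Each of these is below the level of the whole CLP library. The Early B-like cluster 2 (243 cells, with Cd79a and Pax5 among its leading genes) had 90.4 CPM of Ifitm1 (75.7 to 107), 169 CPM of Ifitm2, 251 CPM of Ifitm3, 142 CPM of Ctla2a and 25.4 CPM of Ctla2b. These are close to cluster 1 (290 cells, led by Cd34), with 85.8 CPM of Ifitm1, 184 CPM of Ifitm2, 274 CPM of Ifitm3 and 27.3 CPM of Ctla2b, while Ctla2a was higher in cluster 1 (191 CPM, 174 to 210, against 123 to 163 in cluster 2). The smaller Early B-like cluster 6 (25 cells, led by the surrogate light chain gene Igll1, with the T cell gene Ptcra also among its leading genes) had 16.1 CPM of Ifitm1 from 4 UMIs and 52.5 CPM of Ctla2a. It kept 165 CPM of Ifitm2. In cluster 5 (40 cells, led by the mitotic gene Ccnb2) Ifitm1 had its highest CLP level, 126 CPM, of which 1 cell held 14 of 39 UMIs, and the level without it was 83.4 CPM. In cluster 7 (17 cells, NK or innate lymphoid-like) Ifitm3 had 1 UMI and Ctla2b none.

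In pro-B every cluster was low for Ifitm1 (1.07 to 11.0 CPM), Ctla2a (1.26 to 10.9 CPM) and Ctla2b (0 to 1.86 CPM). Ifitm2 varied less across the 6 pro-B clusters, from 236 CPM in cluster 3 (213 to 261) to 335 CPM in cluster 4 (297 to 377). The intervals of these clusters did not overlap. Each pro-B cluster was above the highest CLP cluster (cluster 5, 224 CPM). The interval of that CLP cluster (174 to 283, 69 UMIs) overlapped those of all pro-B clusters but cluster 4 (297 to 377). Ifitm3 ran from 31.4 CPM in cluster 6 (52 cells, led by Mt1, median 14945 UMIs) to 158 CPM in cluster 1 (398 cells, median 2804 UMIs). The cluster with the shallowest cells thus had the most Ifitm3 for its depth (CPM), and the part of depth in this was not tested.

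**Figure D3:**
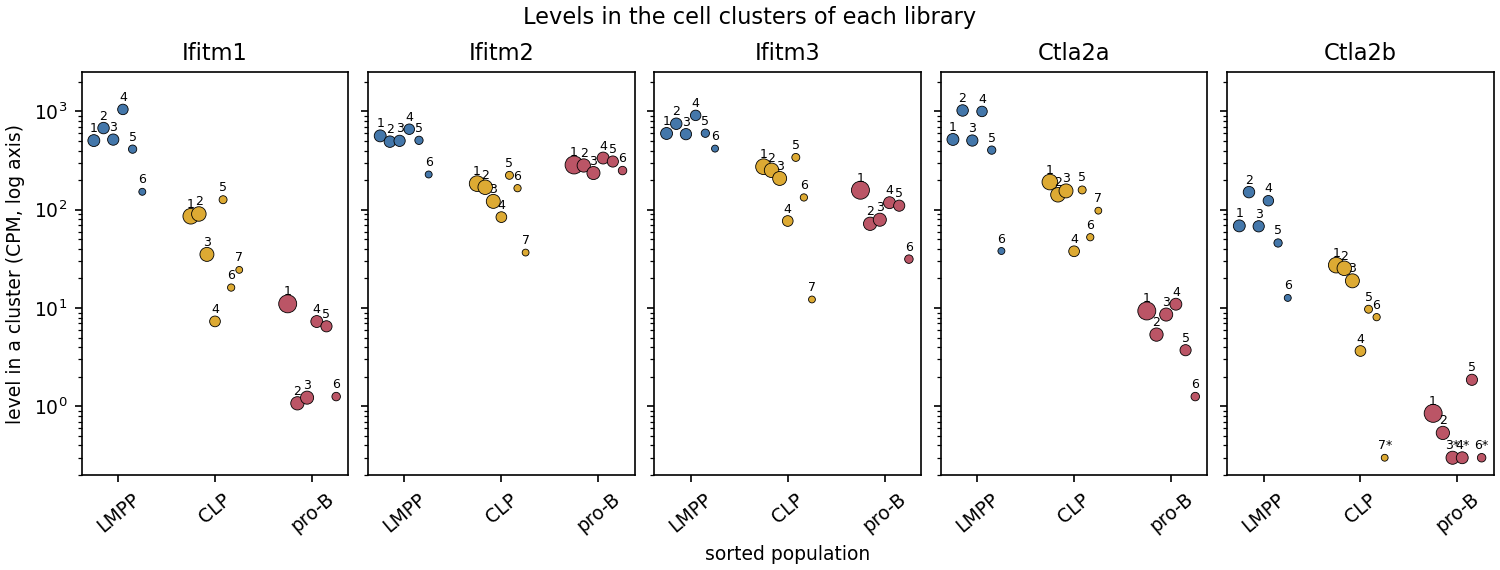
Level of each gene (CPM, log axis) in the cell clusters of the 3 libraries; point size stands for the number of cells, the number names the cluster, and a star marks a cluster with 0 UMIs drawn at the bottom. The dendritic-like clusters (LMPP 6 and CLP 4) lie low for Ifitm1 and Ctla2a, and all 6 pro-B clusters lie above all CLP clusters for Ifitm2.

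Cells were then grouped by genes outside the 5. Hlf and Mecom encode transcription factors of blood stem cells. The 352 LMPP cells with Hlf or Mecom had 754 CPM of Ifitm1 (720 to 789), against 373 CPM (344 to 405) in the 227 cells without, 2.02-fold higher. Ctla2a had 808 CPM in cells with Hlf or Mecom and 452 CPM in cells without, 1.79-fold higher, and Ctla2b 105 and 66.9 CPM, 1.58-fold higher. Ifitm3 had 770 and 510 CPM in these groups, 1.51-fold higher, and Ifitm2 had 566 and 479 CPM, 1.18-fold higher. The median depths were alike, with 6696.5 UMIs in cells with Hlf or Mecom and 7033 in cells without. When the cells were grouped after thinning, the ratios were 1.62 for Ifitm1, 1.39 for Ctla2a, 1.37 for Ctla2b, 1.34 for Ifitm3 and 1.15 for Ifitm2.

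Dntt encodes terminal transferase, an early lymphoid enzyme. All 5 genes were lower in the 376 LMPP cells with Dntt than in the 203 cells without. Ifitm1 had 486 CPM with Dntt and 853 CPM without, a log2 ratio of −0.81 (−0.93 to −0.69). Ctla2b had 74.4 and 124 CPM (log2 −0.73), Ctla2a 585 and 840 CPM (−0.52), Ifitm2 485 and 632 CPM (−0.38) and Ifitm3 613 and 782 CPM (−0.35). The cells with Dntt were deeper, with a median of 7325.5 UMIs against 6133. Grouped after thinning, the log2 ratios ran from −0.70 (Ctla2b) to −0.29 (Ifitm3). Between the 453 LMPP cells with a transcript of the granule genes Prtn3, Mpo, Elane or Ctsg and the 126 cells without, the ratios lay between 1.08 (Ctla2a) and 1.25 (Ifitm3). The Ctla2a and Ctla2b intervals there include no difference. Median depth was 7194 UMIs in the cells with a granule transcript and 5716.5 in those without. Grouped after thinning, the log2 ratio of Ctla2a was 0.20 (0.09 to 0.31), with the interval above 0, and that of Ctla2b was 0.11 (−0.20 to 0.42).

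In CLP, cells were grouped by Ly6d, Ebf1 and Pax5, taken as marks of steps towards the B lineage. Ly6d was also among the leading genes of the plasmacytoid dendritic-like LMPP cluster 6. The dendritic-like CLP cells (cluster 4, 111 cells) were not left out of these groups. Their part in the group with Ly6d and no Ebf1 was not tested. Ctla2a had 195 CPM (168 to 225) in the 176 cells with neither Ebf1 nor Ly6d, 119 CPM (102 to 137) in 232 cells with Ly6d and no Ebf1, 153 CPM (139 to 168) in 463 cells with Ebf1 and no Pax5, and 90.6 CPM (66.8 to 120) in the 79 cells with Pax5. Cells with Pax5 and no Ebf1 are counted in the Pax5 group and also in the group that their Ly6d gives. It was thus 2.16-fold lower in cells with Pax5 than in cells with neither Ebf1 nor Ly6d, but not in steady order between them. Ifitm3 had 294, 198, 227 and 192 CPM in these 4 groups. Its difference between Pax5 cells and cells with neither Ebf1 nor Ly6d was −0.61 on the log2 scale (−0.95 to −0.28), and −0.10 (−0.53 to 0.30) when grouped after thinning. Ifitm1 had 67.5, 61.5, 73.1 and 60.4 CPM, Ifitm2 176, 152, 154 and 166 CPM, and Ctla2b 19.7, 17.1, 23.3 and 15.1 CPM, with overlapping intervals throughout when grouped on all UMIs. So for Ifitm1 the CLP cells with Pax5 (60.4 CPM, 41.3 to 85.3) were still far above the pro-B library (4.21 CPM). Grouping after thinning gave lower levels in cells with Ly6d and no Ebf1 than in cells with neither, by −0.98 (log2) for Ifitm1, −0.80 for Ifitm2 and −0.99 (−1.89 to −0.17) for Ctla2b, where grouping on all UMIs gave −0.13, −0.21 and −0.21 (−1.11 to 0.72).

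In pro-B, 740 cells had 3 or more UMIs of 18 genes of the G2/M phase. Ifitm3 had 80.5 CPM (73.7 to 87.9) in these cells and 165 CPM (142 to 190) in the 366 cells under 3 UMIs, 2.05-fold lower. Ifitm2 had 276 and 292 CPM. Ifitm1 had 17 UMIs (2.73 CPM) and 14 UMIs (12.3 CPM) in these groups. Depth moves with the grouping, at a median of 7752 UMIs in cells with 3 or more G2/M UMIs and 2838 in the others, and its part was not tested. Grouped after thinning, the log2 ratio of Ifitm3 was −0.80 (−1.02 to −0.57), and that of Ifitm2 was −0.24 (−0.37 to −0.11), beside −0.08 (−0.25 to 0.10) on all UMIs.

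**Figure D4:**
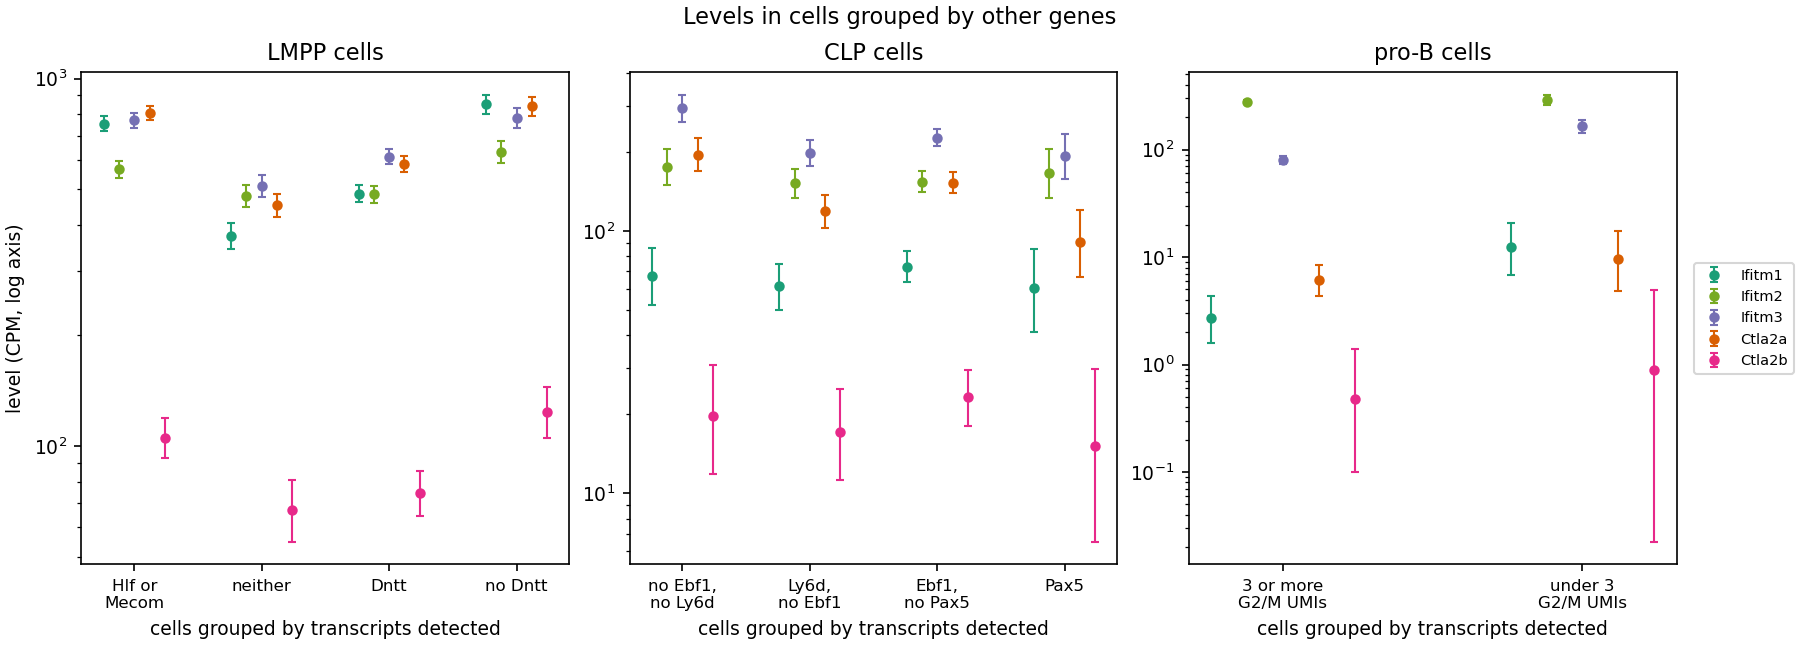
Level of each gene (CPM, log axes that differ between panels, with exact 95% Poisson intervals) in cells grouped by other transcripts, for LMPP, CLP and pro-B. In LMPP the groups with Hlf or Mecom and without Dntt stand higher for all 5 genes; in CLP the intervals mostly overlap; in pro-B Ifitm3 is 80.5 CPM in cells with 3 or more G2/M UMIs and 165 CPM in the others.

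The genes whose profile over the 3 libraries was most like that of each member were found by Euclidean distance of centred log2 levels among 2940 genes. Nearest to Ifitm1 were Wfdc18, a small secreted protein gene with 56.3, 8.71 and 0 CPM along the LMPP, CLP and pro-B libraries, the stress response gene Ier3 and the endosomal tetraspanin Cd63. Wfdc18 and Ier3 were also among the 3 nearest to Ctla2a, together with Angpt1, which encodes the ligand of the receptor Tek. Angpt1 (51.6, 15.1 and 0 CPM), Plppr3 and Wfdc18 were nearest to Ctla2b. Nearest to Ifitm3 were Card19, Dapp1, an adaptor of B cell signalling, and Nfic, a nuclear factor, with 94.7, 32.8 and 10.3 CPM. Nearest to Ifitm2 were Ltb (lymphotoxin beta; 173, 67.2 and 71.5 CPM), Vamp5, a membrane fusion protein gene, and Gstm1, a glutathione transferase gene.

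Among the members, Ctla2a and Ctla2b (distance 0.62) and Ctla2a and Ifitm1 (0.67) were closest, and Ctla2b and Ifitm2 (5.11) farthest. Over the 17 clusters of 20 or more cells, as a description, Ifitm1 and Ifitm3 had a Pearson correlation of 0.97, and Ctla2a and Ctla2b one of 0.97, while Ifitm2 had 0.63 with Ifitm1, 0.61 with Ifitm3 and 0.44 with Ctla2a. Pairs across the 2 families were about as high, with Ifitm1 at 0.97 with Ctla2a and 0.96 with Ctla2b. Ifitm3 had 0.94 with Ctla2a and 0.92 with Ctla2b. These clusters share libraries and depth. By that measure Car2 (carbonic anhydrase) and Vamp5 were among the 3 genes most like Ifitm2, and Adgrl4, an adhesion receptor, was among the 3 most like each of the other 4. Kit, the receptor for stem cell factor, was among them for Ifitm1, Ifitm3 and Ctla2b. Vamp5 was the single gene found by both measures for the same member.

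The rest of the Ifitm family was close to absent. Ifitm7 had 10 UMIs in LMPP and 0 in the other two. Ifitm5, a bone gene, had 4, 1 and 2 UMIs, Ifitm6 had 1, 1 and 0, and Ifitm10 had 1 in each library. Each of these lies at or near the floor of 3 UMIs, apart from Ifitm7 in LMPP.

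Interferon genes were listed because Ifitm genes respond to interferon. Of 30 interferon stimulated genes, 29 were matched in the files, and their median log2 ratio was −0.64 at the first step, −0.67 at the second and −0.90 across both. Few reached 50 CPM. A level at least 2-fold lower was found for 1 of 6 in CLP against LMPP, 1 of 3 in pro-B against CLP and 4 of 6 in pro-B against LMPP. Over all genes at that level the shares were 2.72%, 9.86% and 10.1%. A level at least 2-fold higher was found for 0 of 6, 0 of 3 and 1 of 6 (Ly6e), beside 4.71%, 20.8% and 21.5% of all genes. Ly6e, a surface protein gene, ran the other way, with 579 CPM in LMPP, 944 CPM in CLP and 1782 CPM in pro-B. Bst2, which tethers budding viruses and also marks plasmacytoid dendritic cells, had 177, 196 and 73.7 CPM. Ifi27 had 181, 91.5 and 167 CPM, lowest in CLP as Ifitm2 was. Rtp4 had 78.7, 49.9 and 31.9 CPM. At least 4-fold lower levels were found for 0 of 6, 0 of 3 and 2 of 6 genes in the same order of comparisons, beside 0.895%, 3.93% and 4.07% of all genes. The 2 genes in pro-B against LMPP, named here after their values were seen, were Oasl2, with 54.1, 15.8 and 2.71 CPM along LMPP, CLP and pro-B, and Lgals3bp, with 51.8, 37.5 and 7.87 CPM. Oasl2 was 19.9-fold lower and Lgals3bp 6.58-fold lower in pro-B than in LMPP.

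The 16 genes of interferon receptors and signalling had medians of −0.08 at the first step, −0.45 at the second and −0.50 across both. At 50 CPM, 0 of 7, 2 of 7 and 1 of 5 were at least 2-fold lower, and 0 were 2-fold higher. Over all genes 2.72%, 9.86% and 10.1% were 2-fold lower and 4.71%, 20.8% and 21.5% higher. With 5 to 7 genes, nothing is read from these counts. The 2 genes lower in pro-B against CLP were the receptor chain genes Ifnar1 and Ifnar2. Ifnar1, named after its values were seen, had 37.4, 54.1 and 26.2 CPM in the LMPP, CLP and pro-B libraries. In the same order, Ifnar2 had 113, 102 and 51.0 CPM and Ifngr1 had 69.5, 63.2 and 49.8 CPM. The kinase gene Jak1 had 81.2, 78.1 and 63.5 CPM. Irf2, a factor that binds interferon response elements, had 75.0, 66.7 and 74.8 CPM. Genes of this list under 50 CPM, named after their values were seen, went different ways. Irf7 had 49.3, 27.8 and 9.09 CPM, Socs1 had 19.7, 41.6 and 4.75 CPM, and Ifngr2 had 26.7, 44.9 and 45.6 CPM.

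For the Ctla2 genes, cysteine cathepsins were listed as relatives of their targets. Of 10, 3 reached 50 CPM and 0 of these differed 2-fold in any comparison. Over all genes at that level, 2.72% were 2-fold lower in CLP against LMPP, 9.86% in pro-B against CLP and 10.1% in pro-B against LMPP. The shares 2-fold higher were 4.71%, 20.8% and 21.5%, so with 3 genes nothing is read from this count. Ctsb had 61.0, 93.0 and 89.6 CPM in the LMPP, CLP and pro-B libraries, Ctss 53.8, 72.9 and 45.1 CPM, and Ctsz 52.6, 58.3 and 60.8 CPM. Ctso, at a lower level, had 28.1, 30.2 and 28.1 CPM. Their medians were 0.15, −0.69 and −0.26 at the first step, at the second and across both. Of the cystatins, which inhibit cathepsins too, Cst3 had 322, 342 and 301 CPM and Cstb 79.2, 75.1 and 99.1 CPM. Cst7 was highest in CLP, at 65.7 CPM, with 36.6 CPM in LMPP and 4.07 CPM in pro-B, and Csta1 had 0, 0 and 1 UMI. At 50 CPM, 1 of 3 cystatins (Cst7) was at least 2-fold lower in pro-B against CLP. It was 0 of 3 in CLP against LMPP and 0 of 2 in pro-B against LMPP. Beside the same shares of all genes, nothing is read from so few cystatins. The cystatin medians were 0.09, −0.19 and −0.10 at the first step, at the second and across both. By these levels, the Ctla2 profile was not seen in the 3 cathepsins at 50 CPM or in Cst3 and Cstb. Less abundant cathepsins, named after their values were seen, went both ways from CLP to pro-B. Ctsw had 14.2 and 0.14 CPM there, Ctsf 7.21 and 0.14, Ctsh 14.7 and 0.81, and Ctsl 13.1 and 4.07. Ctsc was higher in pro-B, with 13.2 and 49.1 CPM. None of Ctsw, Ctsf, Ctsh and Ctsl was lower in CLP than in LMPP, where they had 9.22, 6.48, 13.5 and 8.22 CPM.

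The 16 stem and multipotent genes had medians of −1.58 at the first step, −2.50 at the second and −5.08 across both, with genes at 0 set to the floor of 3 UMIs. At 50 CPM, 8 of 10, 4 of 7 and 9 of 11 were at least 2-fold lower, and 0, 0 and 1 were 2-fold higher. Over all genes at that level 2.72%, 9.86% and 10.1% were 2-fold lower and 4.71%, 20.8% and 21.5% higher. Erg, named after its values were seen, was the 1 that was higher, in pro-B against LMPP. It had 42.1, 49.1 and 89.6 CPM in the LMPP, CLP and pro-B libraries. Cd34, a surface sialomucin of progenitors, had 524 CPM in LMPP, 191 CPM in CLP and 0 UMIs in pro-B, which a floor of 3 UMIs makes at least 469-fold lower than in CLP. Lmo2, a bridging factor of stem cell transcription complexes, had 737, 194 and 38.3 CPM. Txnip had 128, 70.7 and 47.9 CPM. Sox4 had 654, 724 and 476 CPM, so it had no such drop.

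**Figure D5:**
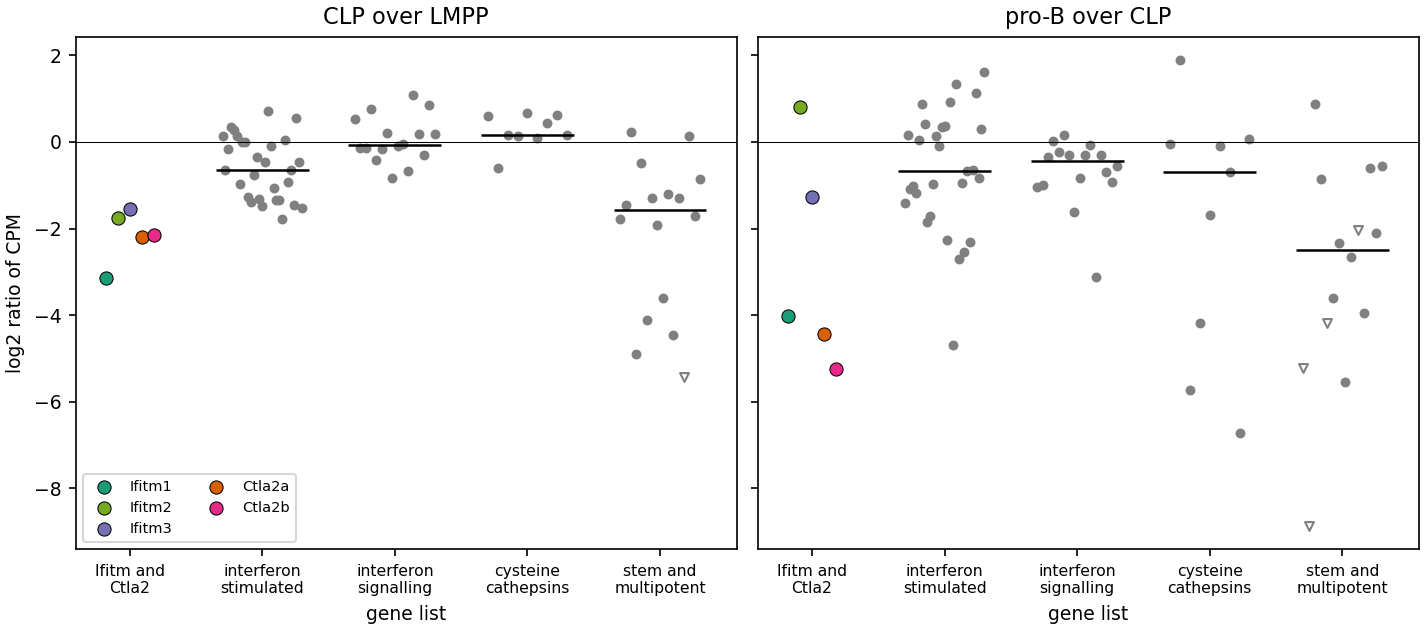
Log2 ratio of CPM at the first step (CLP over LMPP, left) and at the second (pro-B over CLP, right), for the 5 genes and the members of 4 lists with 10 or more UMIs; bars mark list medians and open triangles are bounds for genes at 0 UMIs in the lower library. The 5 genes lie between −3.15 and −1.55 at the first step, and at the second Ifitm2 alone of them lies above 0.

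Few genes next to the Ifitm and Ctla2 genes were abundant enough to be compared. Within 100 kb of an Ifitm start, 13 of 20 annotated genes were matched in the files, 11 had a UMI, and 4 reached 50 CPM. None of these 4 was 4-fold lower in any comparison, and as 0.895% to 4.07% of all genes were, nothing is read from this. Psmd13, a proteasome subunit gene, had 48.8, 44.1 and 128 CPM in the LMPP, CLP and pro-B libraries. The mitochondrial deacetylase gene Sirt3 had 111, 81.1 and 35.8 CPM, lower at each step like Ifitm3 but by smaller factors. Ric8a (Ric8 in the files) had 58.8, 55.3 and 49.5 CPM and the receptor gene Sigirr 52.8, 50.8 and 57.0 CPM. Pkp3, a desmosomal plaque gene, had 17.2, 7.88 and 24.6 CPM, lowest in CLP as Ifitm2 was. Pgghg (Athl1 in the files) had 24.4, 13.9 and 14.7 CPM. Bet1l, Nlrp6, B4galnt4, Ifitm5 and Ifitm6 made up the rest with a UMI. Around the Ctla2 genes, 5 of 11 annotated genes were matched and 0 reached 50 CPM. A UMI was found for 2, of which Tpbpa, a trophoblast gene, had 1 in LMPP. The cathepsin genes Ctsj and Ctsll3, which also lie within 100 kb and were picked out after their counts were seen, had 0 in all 3 libraries.

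Other cell types were measured as well. Dendritic-like, NK or innate lymphoid-like clusters held 19 LMPP cells, 128 CLP cells and 0 pro-B cells. Without them, Ctla2b was lower in CLP than in LMPP by −1.99 on the log2 scale, just under the 4-fold threshold, so 2 of the 5 genes were called there. At this step Ifitm1 (−2.98), Ifitm3 (−1.41) and Ctla2a (−2.09) moved by more than their counting interval, and Ifitm2 and Ctla2b did not. For pro-B over CLP, Ifitm2 (0.69) and Ifitm3 (−1.45) moved by more, and the other genes did not. Of the 5 endothelial markers 4, 4 and 3 had a UMI in LMPP, CLP and pro-B, summing to 91.9, 108 and 40.4 CPM. The defining endothelial gene Cdh5 was at 0 in LMPP and pro-B, and Tek at 0 in CLP and pro-B. Markers of erythroid cells summed to 47.1, 3.85 and 9.09 CPM, with Gata1, Car1 and Epor at 0 in all 3 libraries. The part of such cells in the levels above was not tested beyond this. CLP had 3 barcodes in common with LMPP, and pro-B had 2 in common with CLP and 1 with LMPP.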

How the data were processed

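Single cells of LMPP, CLP and pro-B were counted in 1 library each. The deposited matrices are UMI counts by gene and barcode, not normalized. Per the submitters' processing notes, the authors made these counts with Cell Ranger and the mm10 build; the version, annotation and cell calling used are not stated in the sources used here. The genes and lists were chosen with earlier results of these data known.

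Of 599, 979 and 1123 barcodes, those with fewer than 500 genes or over 10% mitochondrial UMIs were left out. UMIs were summed per library and divided by the total to give CPM, with exact Poisson intervals, exact conditional intervals of ratios and exact Clopper-Pearson intervals of shares at the 95% level. At these depths 3 UMIs, the floor used for a count of 0, are 0.75, 0.50 and 0.41 CPM. No test was made, as there is 1 library per population. Leaving mitochondrial and ribosomal genes out of the total shifts all log2 ratios by −0.03 (CLP over LMPP), −0.31 (pro-B over CLP) or −0.34 (pro-B over LMPP), and size factors by median of ratios shift them by −0.01, 0.10 or 0.10.

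Each library was clustered on its own (Leiden resolution 0.5, 15 neighbours, 20 components, 2000 variable genes) with the 5 genes left out. The rule for naming clusters and the list of G2/M genes were written after the files had been examined. Scrublet called 30 LMPP, 14 CLP and 2 pro-B cells as doublets, with an expected rate of 1%; they were kept, and left out in an alternative. These are 5.18%, 1.48% and 0.18% of cells, and the calls were not checked in another way. Named genes were the 5 members, the 3 nearest genes of each, up to 4 members of each list with the highest CPM, every Ifitm gene and every neighbour with a UMI; genes that led a cluster or defined a group, and Cd34, Kit and others named for likeness over clusters, follow from those steps. Gene models are not named. Some list members were named after their values were seen, as stated where they appear. Positions are from GENCODE M21, by Ensembl ID, and promoter windows from RefSeq (GRCm38.p6), where all 5 genes matched. Steps were tested on simulated counts. Python 3.11.15, SciPy 1.17.1, scanpy 1.11.5 and leidenalg 0.10.2 were used.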

Additional observations from a re-analysis of the deposited data

How the results depend on the processing

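No paired analysis was possible because each population has 1 library and no replicate, which also means that no replicate could be left out. Of 135 alternative values of the ratios of single genes between libraries, 116 moved by less than their counting interval, 19 moved by more and 0 changed sign. The log2 ratio of Ifitm2 for pro-B over CLP stayed between 0.50 and 0.97. The median log2 ratio of the 5 genes was −2.25 to −1.99 at the first step (CLP over LMPP), −4.47 to −3.27 at the second (pro-B over CLP) and −6.99 to −6.55 across both. With equal weight for each cell the pro-B over CLP median was −3.27, beside −4.02 when UMIs were summed. That of Ifitm3 was −0.96 with equal weights and −1.46 in cells with 4000 or more UMIs, an alternative added after seeing that shallow pro-B cells held more Ifitm3 for their depth. The number of genes called 4-fold lower was 2 to 3 at the first step, 2 to 3 at the second (3 when Ctla2b was let in by a level threshold of 20 CPM or none) and 4 across both. Of 35 ratios between cells of a library, 28 kept within their interval when cells were grouped after thinning and 7 moved. Ctla2b in pro-B, with 4 UMIs, is the value that depth limits most.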
